A study of Mus musculus with 10 samples.

Results

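The Kruppel-like factors described here are 10 genes, Klf2, Klf3, Klf4, Klf5, Klf6, Klf7, Klf9, Klf10, Klf13 and Klf15, chosen by symbol and followed in mouse hippocampus after a kainate seizure stimulus. Every probe set that the platform annotation assigned to one of these symbols was taken, which gave 34 probe sets of the 45037 on the array that are not controls. A probe set is a group of short probes against one transcript. Of the 34, 30 were bright enough to be tested, and each of the 10 genes kept at least 1. Klf9 had 7 probe sets, Klf3 had 7, Klf6 had 5, Klf7 had 4, Klf5 and Klf13 had 3 each, Klf4 had 2, and Klf2, Klf10 and Klf15 had 1 each. The 4 probe sets that were too dim to test were 2 of Klf3, 1 of Klf5 and 1 of Klf13.

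Hippocampal RNA was measured on 10 arrays in 5 groups of 2, and every group came from mice 3 weeks old. Wild-type mice, labelled C57BL6 F1/J, received saline in one group and kainate at 14 mg/kg in another; the labels of 2 of these 4 arrays give no strain. A-CREB mice, labelled TetO-A-CREB-95 C57BL6 F1/J, received saline, kainate at 14 mg/kg or kainate at 18 mg/kg. Kainate activates a class of glutamate receptors and provokes seizures, and A-CREB is an engineered peptide that blocks DNA binding by CREB, a transcription factor switched on by neuronal activity. TetO is a promoter that needs a separate transactivator; no source used here gives its driver, the sex of the mice or the time from injection to dissection. No wild-type group received 18 mg/kg. Each array held pooled RNA of 3 to 4 mice (14 wild-type and 20 A-CREB mice in all), so the errors describe how 2 pools of a group differ. The number of arrays limits the precision.

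Kruppel-like factors are zinc finger proteins that bind GC-rich and CACCC sequences in promoters. Klf2, Klf4, Klf5, Klf6 and Klf7 are known mainly as activators, although Klf4 also represses; Klf3 represses through the corepressor CtBP, and Klf9, Klf10 and Klf13 recruit the Sin3 corepressor complex. In neurons Klf4 and Klf9 are known to restrain axon growth and Klf6 and Klf7 to promote it, and Klf9 is induced by thyroid hormone and glucocorticoids during brain development.

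RefSeq (GRCm38.p6) promoter sequences matched 8 of the 10 genes, all except Klf5 and Klf10. The 250 bases before the annotated start are shown for Klf4, which had the largest response, for Klf6 and Klf9, the next members by adjusted p in the fit with replicate number, and for Klf2, the closest relative of Klf4. Capitals mark each match to TGACG, the core of the cAMP response element that CREB binds, on either strand (CGTCA where the match is on the other strand), and in Klf2 also a match to the MEF2 site, CTAAATTTAG. Klf4 is read from the minus strand of chr4:55532476-55532725, and the others from the plus strand of chr13:5861239-5861488 (Klf6), chr19:23140976-23141225 (Klf9) and chr8:72318812-72319061 (Klf2).
Klf4: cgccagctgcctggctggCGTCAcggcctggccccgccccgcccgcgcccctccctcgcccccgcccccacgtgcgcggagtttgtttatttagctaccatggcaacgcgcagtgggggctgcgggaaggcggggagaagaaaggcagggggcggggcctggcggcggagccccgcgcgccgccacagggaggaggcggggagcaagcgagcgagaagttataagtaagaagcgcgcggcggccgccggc
Klf6: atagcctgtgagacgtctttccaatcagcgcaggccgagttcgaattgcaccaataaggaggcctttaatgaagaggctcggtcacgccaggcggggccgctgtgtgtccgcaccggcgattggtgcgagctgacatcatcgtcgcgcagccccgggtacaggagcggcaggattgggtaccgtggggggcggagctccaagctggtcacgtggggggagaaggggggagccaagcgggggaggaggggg
Klf9: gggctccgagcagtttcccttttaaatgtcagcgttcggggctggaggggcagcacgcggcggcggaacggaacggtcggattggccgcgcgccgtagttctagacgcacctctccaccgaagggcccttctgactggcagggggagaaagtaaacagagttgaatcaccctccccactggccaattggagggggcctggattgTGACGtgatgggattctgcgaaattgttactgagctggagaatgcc
Klf2: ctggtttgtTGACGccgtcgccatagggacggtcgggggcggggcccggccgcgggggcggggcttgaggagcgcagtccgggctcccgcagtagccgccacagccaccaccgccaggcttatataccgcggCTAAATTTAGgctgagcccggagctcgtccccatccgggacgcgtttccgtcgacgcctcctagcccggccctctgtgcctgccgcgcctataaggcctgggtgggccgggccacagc

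Searched on both strands, TGACG was present before the start of 5 of the 8 member promoters (Klf2, Klf4, Klf9, Klf13 and Klf15) and of 17.8% of all 32851 promoters in the table. In Klf4 it lay at positions -232 to -228, in Klf9 at -46 to -42 and in Klf2 at -241 to -237, counted back from the start. The full palindrome TGACGTCA, which contains TGACG, was in 0 of the 8 and in 1.55% of all promoters. GGGCGG, a GC box of the kind Klf and Sp proteins bind, was in 7 of the 8 (32.7% of all), with 4 matches in Klf4, and CACCC was in 6 of the 8 (52% of all). The MEF2 site was in Klf2 alone (0.508% of all), the CArG box bound by serum response factor was in 0 (1.47% of all), and TATAAA was in 0 (12.4% of all). The GC content of the member promoters ran from 59.2% in Klf7 to 78.4% in Klf3, against a median of 52.4% over all promoters, and matches to GC-rich motifs go with base composition. These matches describe letters in these windows and not bound sites. The windows of Klf7 (chr1:64121390-64121639) and Klf15 (chr6:90462326-90462575) lie inside the span of the gene, before an internal start.

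Klf4 was the member that rose after kainate. It is an activator and repressor first known from epithelia and pluripotent cells, and its gene lies at chr4:55527137-55532475. Its brighter probe set (1417394_at) read 301.6 and 265.0 on the wild-type saline arrays (replicates 1 and 2 in this order throughout), 1073.0 and 794.9 after wild-type kainate, 256.8 and 280.9 on A-CREB saline arrays, 1703.8 and 1343.3 after A-CREB kainate at 14 mg/kg, and 903.2 and 2043.8 at 18 mg/kg. These are MAS5 signals on the deposited linear scale. All 6 kainate arrays (median 1208.2) lay above all 4 saline arrays (median 273.0), with no overlap, as in 1.73% of all genes. The 18 mg/kg arrays were the least alike of any group, at 1474 ± 807 (SD, n = 2), against 1524 ± 255 at 14 mg/kg in A-CREB, 934 ± 197 in wild type after kainate, and 283 ± 25.9 and 269 ± 17.0 after saline in wild type and A-CREB (each SD, n = 2).

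Averaged over wild type and A-CREB, the Klf4 difference between kainate and saline was 1.98 on the log2(signal + 22) scale (SE 0.22, 3.94-fold), with an adjusted p of 0.00195 in limma. Here and throughout, adjusted p values are Benjamini-Hochberg values over all 13219 genes tested, each gene stands for its brightest probe set, and 0.05 was the threshold. The rise was 2.40 (SE 0.33, 5.28-fold, adjusted p 0.0156) in A-CREB at 14 mg/kg and 2.25 (SE 0.33, 4.76-fold, adjusted p 0.0328) at 18 mg/kg. In wild type the difference was 1.63 (SE 0.33, 3.1-fold) and did not pass (adjusted p 0.186). With the replicate number as a block it passed in wild type too (adjusted p 0.0138), and Klf4 passed in the other 3 comparisons with adjusted p of 0.000343, 0.000931 and 2.31e-05. Within the numbers the mean response was 1.97 for replicate 1 and 1.99 for replicate 2. The A-CREB responses share their saline arrays and are not independent of each other.

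Leaving out single arrays moved the Klf4 response in single groups more than its mean. Without any one array the mean response stayed between 1.84 and 2.13 and passed (adjusted p 0.000135 to 0.0163). The call in A-CREB at 14 mg/kg was lost without either A-CREB saline array (adjusted p 0.17 and 0.105) and without either A-CREB 14 mg/kg array (adjusted p 0.211 and 0.0872), each of which leaves a group with 1 array. The 18 mg/kg difference ran from 1.67 without replicate 2 of that group (adjusted p 0.158) to 2.83 without replicate 1. Its call held without replicate 1 (adjusted p 0.00247) and was lost without any one of the other 9 arrays (adjusted p 0.0533 to 0.294). The wild-type difference ran from 1.42 to 1.85 and passed without either 18 mg/kg array (adjusted p 0.0204 and 0.0196).

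The second Klf4 probe set (1417395_at) moved the same way. It read 143.1 and 142.0, 376.1 and 301.6, 163.3 and 156.7, 612.6 and 491.3, and 410.1 and 638.1 in the groups in the order above. Again no kainate array overlapped a saline array, and the share of all probe sets that do so is not given here. In a fit over all 27023 tested probe sets its mean response was 1.36 (SE 0.18, adjusted p 0.00949) and that of the brighter probe set 1.98 (SE 0.23, adjusted p 0.00502). In that fit the brighter probe set passed in A-CREB at 14 mg/kg (adjusted p 0.0363, and 0.0027 with the block), passed at 18 mg/kg with the block alone (0.073, and 0.00655 with it) and did not pass in wild type either way (0.338 and 0.0551). Of the 30 member probe sets tested these 2 rose and 0 fell in the mean response, where 0.455% of all probe sets passed, and with the block 3 rose (background 1.34%), the added one from Klf9.

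**Figure D1:**
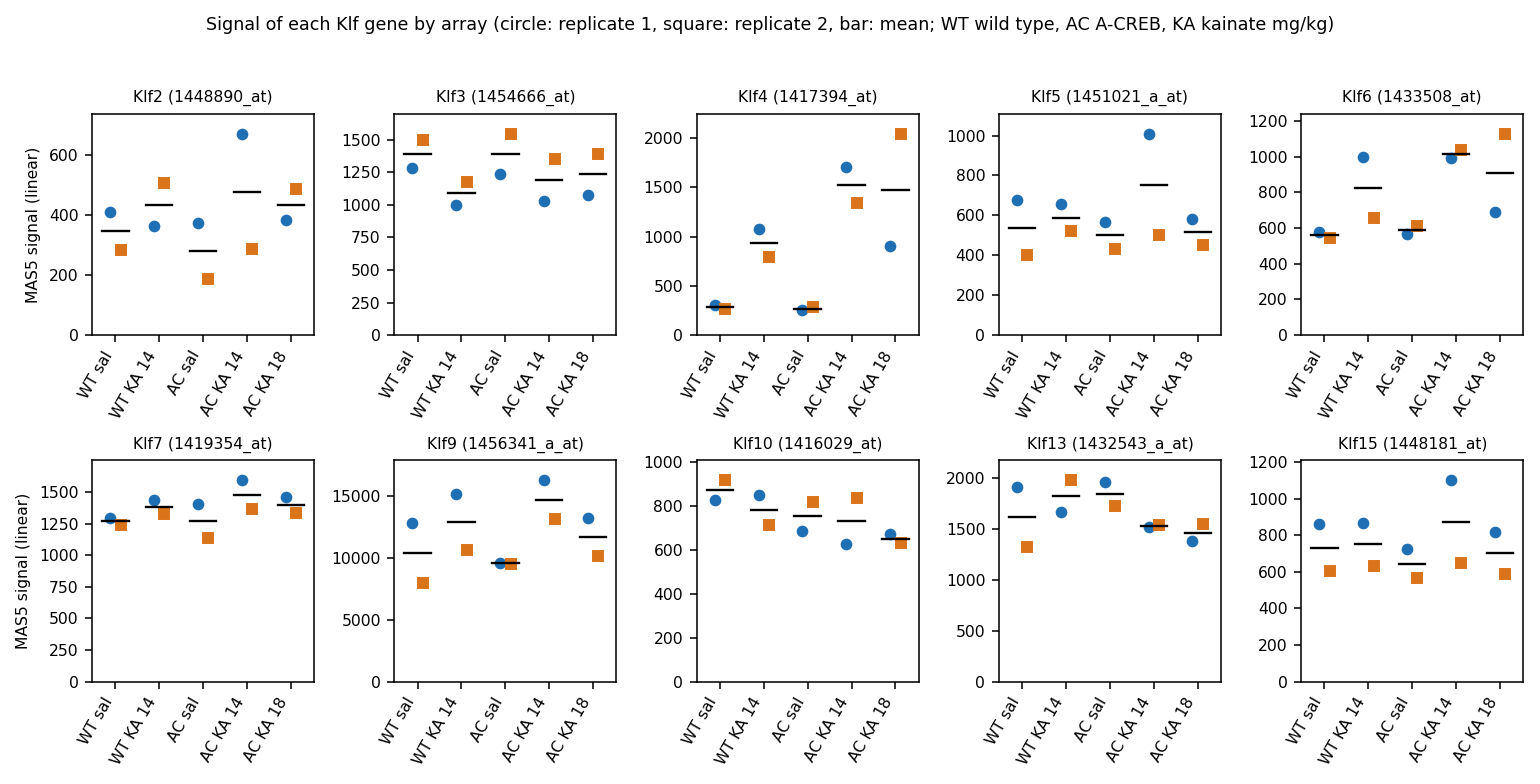
MAS5 signal (linear, from 0) of the brightest probe set of each of the 10 genes, with 1 point per array in the 5 groups and a bar at the mean of each group (n = 2). The Klf4 saline arrays sit between 256.8 and 301.6 and its kainate arrays between 794.9 and 2043.8, while most other genes overlap.

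Across the family, 1 of the 10 members rose in the mean kainate response and 0 fell, against 0.673% of all genes that passed in either direction (0.658% higher). In wild type 0 of 10 passed (background 0.182%). In A-CREB 1 passed at 14 mg/kg (background 0.31%) and 1 at 18 mg/kg (background 0.235%), Klf4 in both. With the replicate block the counts were 1, 1, 1 and, for the mean response, 2 (Klf4 and Klf9), against 0.711%, 1.26%, 0.696% and 2.69% of all genes. At an unadjusted p under 0.05 there were 1, 3, 1 and 3 of the 10 members in the same order, against 466, 660, 369 and 960 of all 13219 genes. The median member difference was 0.17 in wild type, 0.45 and 0.13 in A-CREB at the lower and the higher dose and 0.18 in the mean response, and the medians of all genes were -0.05, -0.02, 0.002 and -0.03. Members above 0 numbered 8, 7, 7 and 7 of 10.

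Among the other activators, Klf6 came closest to Klf4 in keeping its groups apart. Klf6, at chr13:5861489-5870393, is widely expressed and induced by injury and growth stimuli. Its brightest probe set (1433508_at) read 579.4 and 541.9 after wild-type saline, 999.1 and 654.7 after wild-type kainate, 567.2 and 609.6 after A-CREB saline, 991.4 and 1039.8 after 14 mg/kg and 689.0 and 1127.4 after 18 mg/kg. The lowest kainate array (654.7) was above the highest saline array (609.6), a separation in this direction that 1.73% of all genes showed and that Klf4 and Klf6 showed among the 10 members. The mean difference was 0.59 (SE 0.17, 1.51-fold), with an adjusted p of 0.33, and 0.0573 with the block, so Klf6 did not pass in either. All 5 Klf6 probe sets lay above 0 in the mean response, from 0.34 to 0.65. Only the brightest separated all kainate from all saline arrays.

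Klf2, at chr8:72319062-72321654, is the flow-responsive factor of endothelium and is known in lymphocyte quiescence. It read 408.8 and 281.5, 361.9 and 506.5, 373.3 and 186.8, 668.8 and 284.9, and 383.3 and 484.3 in the order above. Kainate and saline arrays overlapped. Its mean difference was 0.49 (SE 0.28, adjusted p 0.816), made of 0.13 in replicate 1 and 0.86 in replicate 2. The Klf2 difference was not separated from its spread.

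Klf7 and Klf5 showed smaller differences. Klf7 (chr1:64029448-64122345), which promotes neurite growth and sensory neuron development, read 1135.6 to 1402.6 after saline and 1328.6 to 1590.8 after kainate, with a median of 1268.6 (n = 4) and 1399.0 (n = 6). Within each replicate number every kainate array exceeded every saline array, as 3.3% of all genes did, but its mean difference of 0.15 (SE 0.12, adjusted p 0.912) did not pass. Its other 3 probe sets ran from -0.013 to 0.17. Klf5 (chr14:99298691-99313412), known in proliferating epithelia and vascular smooth muscle, read 401.0 to 675.8 after saline and 453.7 to 1008.0 after kainate, and the groups overlapped. Its mean difference was 0.22 (SE 0.23, adjusted p 0.962).

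Of the repressors, 0 of 4 passed without the block. Klf9 (chr19:23141226-23168129) is induced by glucocorticoids and thyroid hormone, and its brightest probe set (1456341_a_at) read 12840.7 and 7949.7, 15185.1 and 10664.1, 9621.2 and 9536.3, 16267.1 and 13143.3, and 13241.4 and 10187.1 in the order above. Across all arrays kainate and saline overlapped, through the wild-type saline array of replicate 1. Within each number every kainate array was higher, as in 3.3% of all genes. The mean difference was 0.39 (SE 0.17, 1.31-fold, adjusted p 0.674), and it passed with the block alone (adjusted p 0.0476). In the fit over probe sets with the block, 1428289_at passed (0.39, adjusted p 0.0385) and 1456341_a_at did not (adjusted p 0.0873). The mean response of the 7 Klf9 probe sets ran from -0.05 to 0.61, 5 of them above 0. Without wild-type saline replicate 2 the difference of the brightest was 0.22, and without replicate 1 it was 0.56.

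Klf3 (chr5:64803521-64832901) was the member with the lowest mean response, a repressor that acts through CtBP. Its probe set 1454666_at read 1234.4 to 1545.6 after saline (median 1393.6, n = 4) and 998.8 to 1391.3 after kainate (median 1130.2, n = 6), and within each replicate number every kainate array was lower, as in 4.79% of all genes. The difference was -0.27 (SE 0.14, adjusted p 0.793, and 0.149 with the block) and did not pass. The other 4 tested Klf3 probe sets ran from -0.12 to 0.68, and the mean of the probe sets turned the sign, to 0.11. Probe sets of the gene did not move together.

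Klf10, Klf13 and Klf15 showed no difference beyond their spread. Klf10 (chr15:38291464-38300711), the TGF-beta-inducible early gene, read 687.8 to 917.4 after saline and 628.5 to 852.7 after kainate, with a mean difference of -0.14 (SE 0.13, adjusted p 0.946). Klf13 (chr7:63886351-63938915), a Sin3-recruiting factor, read 1319.1 to 1965.6 and 1379.4 to 1976.8, with a difference of -0.05 (SE 0.14, adjusted p 0.991). Klf15 (chr6:90461043-90491803), a regulator of amino acid and glucose metabolism that glucocorticoids induce, read 566.4 to 860.9 and 587.5 to 1099.8, with a difference of 0.14 (SE 0.20, adjusted p 0.979). Their group ranges overlapped.

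**Figure D2:**
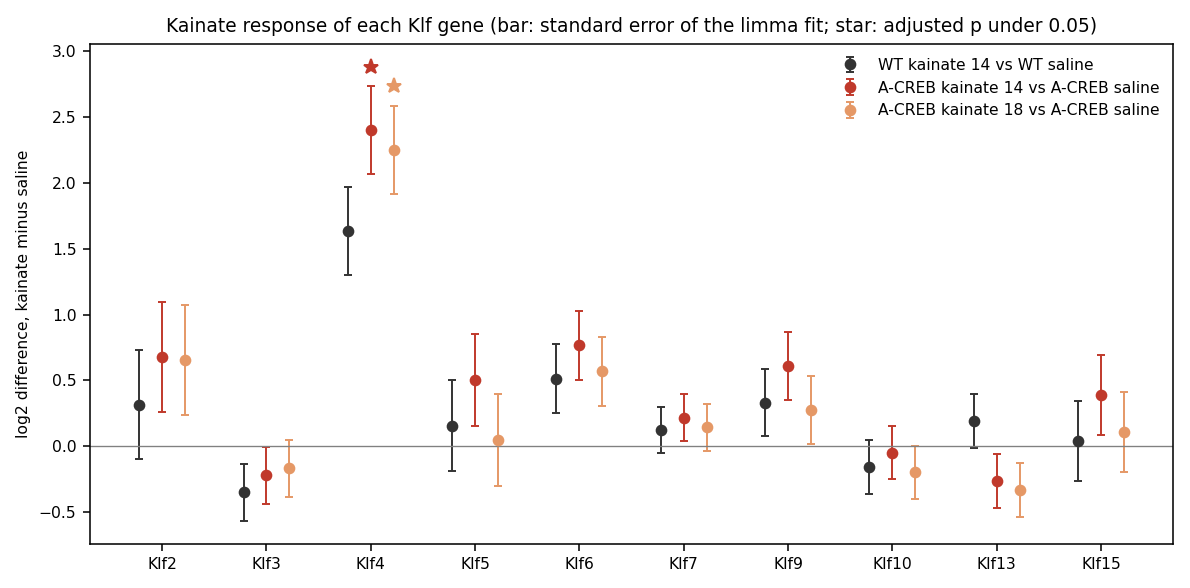
Difference between kainate and saline (log2(signal + 22) scale) of each gene's brightest probe set in wild type (14 mg/kg) and for both A-CREB doses, with the standard error of the fit and a star where the adjusted p passed. Klf4 lies at 1.63, 2.40 and 2.25, and the other members lie between -0.35 and 0.77.

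**Figure D3:**
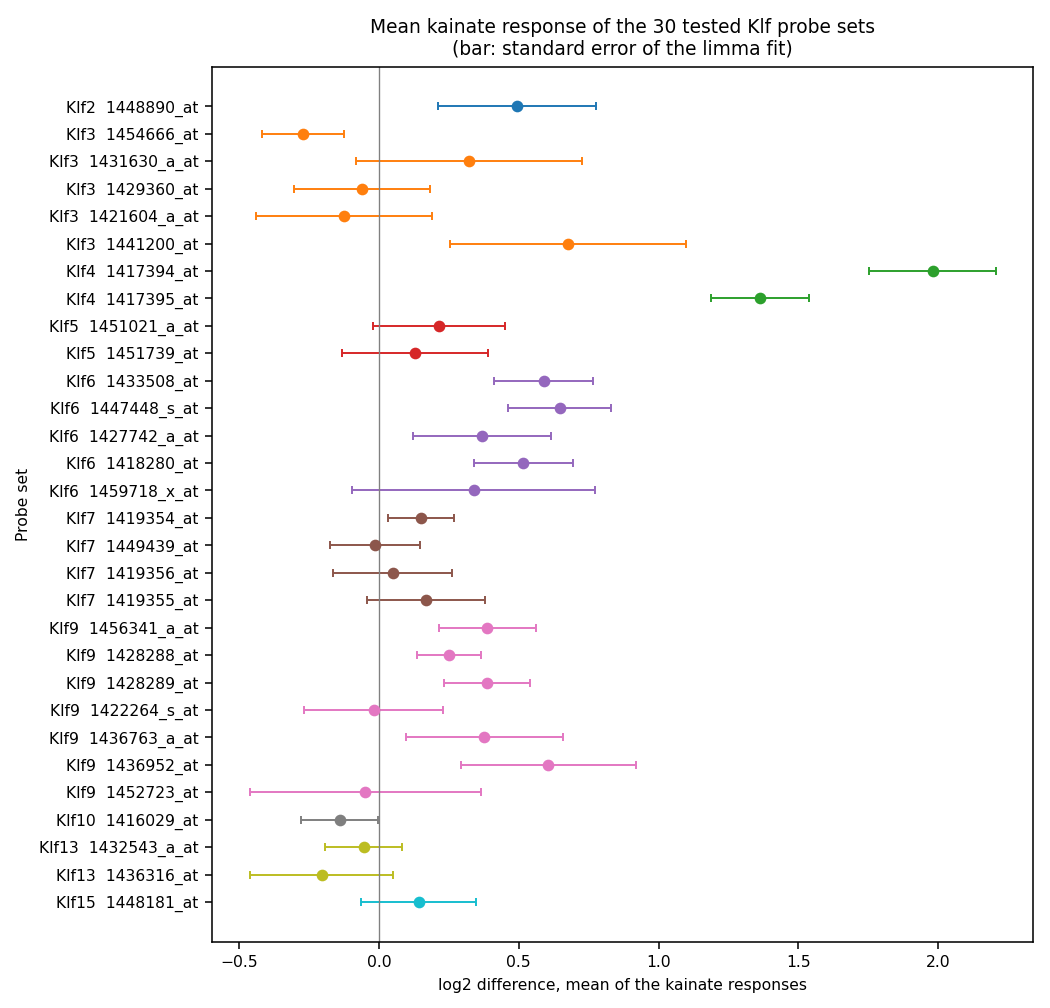
Mean kainate response (log2(signal + 22) scale, with standard error) of each of the 30 tested probe sets, grouped by gene. The Klf4 probe sets lie at 1.98 and 1.36, the 5 Klf6 probe sets are all above 0, and those of Klf3 and Klf9 lie on both sides of 0.

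In the comparisons of genotype and dose 0 of 10 members passed, and 0 of all 13219 genes passed (background 0%), while 195, 168, 96 and 75 genes had an unadjusted p under 0.05 for saline, after kainate, for the difference of the responses and for dose. No member, by its brightest probe set and without the block, was among those. With the block 0 members passed in any of the 4, where genes overall numbered 0, 5 (0.0378%), 0 and 0. After saline A-CREB minus wild type ran from -0.33 (Klf2) to 0.21 (Klf13), with a median of -0.07, and 2 of 10 members were above 0. After kainate at 14 mg/kg it ran from -0.24 (Klf13) to 0.70 (Klf4), with a median of 0.15, and 8 of 10 were above 0. The other tested Klf13 probe set was at 0.21 in that comparison. Medians of all genes were -0.03 after saline and -0.01 after kainate.

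For Klf4 the A-CREB kainate arrays at 14 mg/kg (1703.8 and 1343.3) were both above the wild-type ones (1073.0 and 794.9), a difference of 0.70 (SE 0.33, unadjusted p 0.0627, adjusted p 1). Its second probe set was at 0.67 (SE 0.265, unadjusted p 0.0312 in the limma fit over probe sets). With the block the unadjusted limma p was 0.0294 for the gene and 0.017 for the second probe set. None of these passed after adjustment. The share of all genes whose 14 mg/kg arrays separate by genotype in this way was not counted. The difference between the Klf4 responses, A-CREB minus wild type, was 0.77 (SE 0.47, adjusted p 1), so the larger difference in A-CREB was not separated from the spread of the arrays. A-CREB at 18 against 14 mg/kg gave -0.15 for Klf4 (SE 0.33, adjusted p 1), and the sign differed by number, at -0.90 in replicate 1 and 0.60 in replicate 2. Over the members the difference of the responses ran from -0.46 (Klf13) to 0.77, with 9 of 10 above 0. The dose difference ran from -0.45 (Klf5) to 0.05 (Klf3), with 1 of 10 above 0. The medians of all genes were 0.013 and 0.019. The other tested Klf13 probe set was at 0.094 in the difference of the responses, and the other tested Klf5 probe set at 0.155 for dose. The dose comparison and the 14 mg/kg comparisons use the same A-CREB arrays. By the brightest probe set, 5 members (Klf2, Klf5, Klf7, Klf9 and Klf15) had their highest signal on replicate 1 of A-CREB kainate at 14 mg/kg. The same count over all genes was not made. Of their other tested probe sets, some peaked there (1428288_at of Klf9) and some elsewhere (1451739_at of Klf5, 1449439_at of Klf7).

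**Figure D4:**
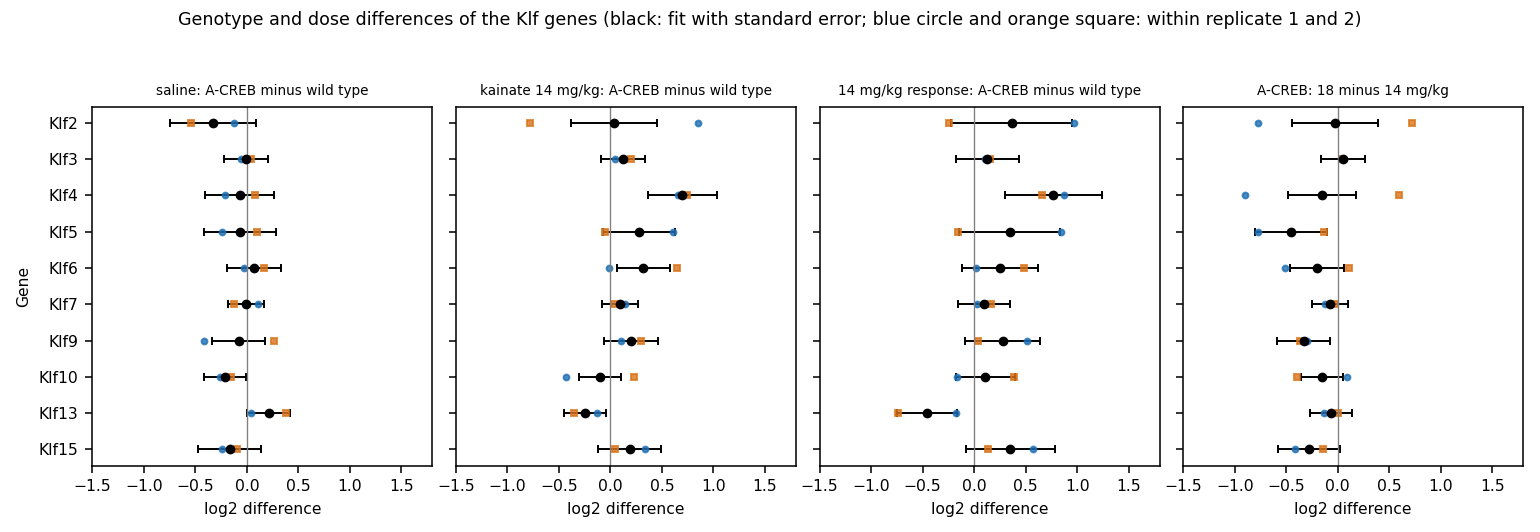
Differences by genotype and dose (log2(signal + 22) scale) of each gene's brightest probe set in 4 panels, in black with the standard error and in colour within each replicate number. None passed, and Klf4 is the highest after kainate (0.70) and in the difference of the responses (0.77).

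Genes whose log2 levels followed Klf4 most closely over the 10 arrays were Gadd45g (Pearson r 0.995), Ccn1 (0.991) and Nfkbiz (0.986), with mean kainate responses of 2.74, 2.92 and 2.14. The arrays share the kainate contrast, so these are descriptions of the 10 arrays.

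The other members of the wider Klf and Sp family were tested for the same contrast: of 16 listed, 13 were on the array and 11 were tested. Of these 0 rose or fell in the mean response, without or with the block, where 0.673% and 2.69% of all genes passed. Examples are Sp4 at -0.32, Klf12 at -0.12, Sp3 at -0.11 and Sp7 at -0.14. Of the 13 tested genes of the ERK5-MEF2 and SRF routes, which drive Klf2 and Klf4 in other cells, 0 passed. Mef2c, an activity-dependent neuronal factor, was at -0.43 (adjusted p 0.555, and 0.0254 with the block), made of -0.80 in wild type (adjusted p 0.874, and 0.0149 with the block) and -0.09 and -0.03 in A-CREB at the lower and higher dose. Elk1 was at -0.37, Mef2d at -0.19 and Mrtfa at -0.28.

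Among the hormone routes known for Klf9 and Klf15, 0 of the 8 tested steroid and thyroid receptor genes passed; Nr3c2, the mineralocorticoid receptor, was at -0.43 (adjusted p 0.59, and 0.0305 with the block). Of 20 tested glucocorticoid-induced genes, 3 rose in the mean response and 0 fell, where 0.673% of all genes passed: Errfi1, an inhibitor of EGF receptor signalling (2.23, SE 0.16, adjusted p 0.000134), Dusp1, a MAP kinase phosphatase (2.04, SE 0.21, adjusted p 0.00107), and Sgk1, a kinase (1.02, SE 0.16, adjusted p 0.0185). Per1 was at 0.76 (adjusted p 0.101, and 0.00248 with the block), and 6 of the 20 passed with the block, where 2.69% of all genes did. Errfi1, Dusp1 and Sgk1 are also known as genes that neuronal activity induces. The list was chosen with earlier results of these data known, so its counts are not a test against the share of all genes. The list's median was 0.35, beside -0.03 over all genes.

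For the partners of the repressors and of Klf10, 0 of 16 TGF-beta genes and 0 of 14 corepressor, coactivator and ubiquitin ligase genes passed. Over all genes 0.673% passed, so 0 in lists of this size does not set them apart. With the block, where 2.69% of all genes passed, Id1, an inhibitor of bHLH factors, passed (0.65, adjusted p 0.0141). So did Fbxw7, a ubiquitin ligase subunit (0.41, adjusted p 0.0279). Of 17 textbook Klf targets 15 were tested and 0 passed; Cdkn1a, the cell cycle inhibitor p21 that Klf4 and Klf6 can activate, was at 0.73 (SE 0.25, adjusted p 0.467, and 0.0503 with the block), Eng at -0.44, and the list's median was 0.08, beside -0.03 over all genes.

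Hippocampal markers were present, with 10 of 10 tested. Their summed signal was 20472 to 21742 after wild-type saline, 20081 to 20475 after wild-type kainate, 21068 to 23107 after A-CREB saline, 15151 to 19757 at 14 mg/kg and 17169 to 18232 at 18 mg/kg. All 4 A-CREB kainate arrays thus lay below both A-CREB saline arrays, a separation that was not counted over all genes. The median differences were -0.37 and -0.30 at the lower and higher dose. In these comparisons 0 of 10 passed, where 0.31% and 0.235% of all genes did. With the block Tdo2 passed as lower at 14 mg/kg (1.26% of all genes passed). The lowest sum was on replicate 1 of A-CREB kainate at 14 mg/kg. In bulk RNA, fewer cells of a type and less RNA per cell cannot be told apart. Endothelium, where Klf2 and Klf4 are well known, had 13 of 14 listed markers on the array. Their summed signal was 5039 to 5151 after wild-type saline, 3976 to 4747 after wild-type kainate, 4498 to 4601 after A-CREB saline, 4054 to 4340 at 14 mg/kg and 4662 to 4976 at 18 mg/kg, and 0 of 12 tested passed. Against the saline arrays of the same genotype the sum was lower after kainate at 14 mg/kg in wild type and A-CREB and higher at 18 mg/kg, where Klf4 was at 3.1-fold, 5.28-fold and 4.76-fold. None of the 13 was at 0, and Tie1 was dimmest (2.6 to 69.5). Microglia markers, 11 of 12 on the array, summed to 13316 to 15076, 12975 to 14074, 15218 to 17435, 16487 to 21892 and 18438 to 19857 in the same order, and 0 of 11 passed. Their highest sum was on replicate 1 of A-CREB kainate at 14 mg/kg. On that array 5 members peaked by their brightest probe set, a count that was not made over all genes. Striatal markers summed to 18350 on wild-type kainate replicate 2 and 4726 to 7700 on the others; Klf4 on that array was 794.9. Choroid plexus markers, 8 of 9 on the array, summed to 31111 to 33129, 31651 to 44876, 26854 to 33587, 31206 to 40014 and 24997 to 40221 in the order above, and 0 of 8 passed. Most of each sum was Ttr alone, which read 21938.8 to 38807.9. It was higher on replicate 1 than on replicate 2 in every group, so the sums mainly follow this gene. The median difference of the 8 markers was 0.58 for A-CREB at 14 mg/kg against saline (7 of 8 above 0) and -0.67 for A-CREB against wild type after saline. It was 0.67 for the difference of the responses and -0.54 for dose. The members' medians were 0.45, -0.07, 0.27 and -0.15 in this order. The signs differed in wild type after kainate (-0.08, members 0.17) and at 18 mg/kg in A-CREB (-0.006, members 0.13). They also differed for A-CREB against wild type after kainate (-0.07, members 0.15). In that comparison the microglia median was 0.49 (11 of 11 above 0) and the striatal median -0.85 (0 of 7 above 0). In the mean response the medians were 0.11 for choroid plexus markers and 0.18 for the members. The part of endothelium, microglia, choroid plexus, striatal tissue and the hippocampal marker level in the member differences was not tested.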

How the data were processed

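Each Affymetrix Mouse430_2 array measured a pool of hippocampal RNA. The deposited intensity values are MAS5 signals on a linear scale, made with MAS5 in GCOS per the submitters' processing notes, with settings that no source used here gives. The authors' deposited signals had a 2% trimmed mean of 500.0 on every array, and medians of 94.9 to 106 on arrays numbered 1 and 135 to 152 on those numbered 2.

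A pseudocount of 22, the 20th percentile of the signals, was added before log2. This understates the fold of dim genes. Of 45101 probe sets, 64 were controls, 34945 named 1 gene, 932 several and 9160 none. Probe sets in the upper 60% by mean were tested (27023), and each of 13219 genes was represented by its brightest. All 10 arrays were fitted with limma 3.58.1 in R 4.3.3 (eBayes with an intensity trend), two-sided, adjusted by Benjamini-Hochberg within each comparison, threshold 0.05. The procedure was tested on simulated data.

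Replicate numbers come from the titles, which do not say what they mark or that the pools were separate; p-values measure the spread between these arrays. Deviations from group means correlated at 0.52 to 0.64 between same-numbered arrays of different groups, all 10 arrays correlated best with the same number, and the numbers separated on the first component (46.0%). The block is given where it changes a call.

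The members, gene lists and markers were chosen with earlier results of these data known. All members are named, with up to 4 genes per list by smallest p in the mean response and the 3 genes most correlated with a member that passed. The mean response averages the wild-type response with the mean of both A-CREB responses. Alternatives were other pseudocounts, no filter, quantile normalization, no intensity trend, the mean of probe sets, only the groups compared, the block, and leaving out each array.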

Additional observations from a re-analysis of the deposited data

How the results depend on the processing

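The number of members passing was 0 in wild type, 1 in A-CREB at 14 mg/kg, 1 at 18 mg/kg and 1 in the mean response. With the replicate block it became 1 in wild type and 2 in the mean response. With no intensity trend it was 0 in A-CREB at 14 mg/kg and 0 at 18 mg/kg, and with no filter it was 0 at 18 mg/kg. Leaving out each array gave 0 to 1 in each of the 3 single responses. The cause was not tested, except that leaving out an array of a compared group leaves it 1 array, assumed to vary like the other groups. Of single-gene log2 differences 22 changed sign, each in a comparison in which that gene did not pass, and 16 lost and 4 gained a call (Klf4 in all but 1, Klf9 with the block). With the mean of probe sets Klf3 was 0.01 in wild type, 0.13 and 0.28 at the lower and higher A-CREB dose and 0.11 in the mean response, and Klf13 was -0.005 in wild type. With quantile normalization Klf10 was 0.006 in A-CREB at 14 mg/kg. Leaving out each array, the wild-type ranges were -0.20 to 0.52 for Klf5, -0.013 to 0.68 for Klf9, -0.074 to 0.45 for Klf13 and -0.21 to 0.28 for Klf15. At 14 mg/kg in A-CREB Klf10 ran from -0.25 to 0.15. At 18 mg/kg the ranges were -0.35 to 0.01 for Klf3, -0.14 to 0.24 for Klf5, -0.006 to 0.29 for Klf7 and -0.12 to 0.34 for Klf15, and Klf13 ran from -0.19 to 0.078 in the mean response. Dim probe sets near the pseudocount give the least precise values.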
